A study of Homo sapiens with 8 samples.

Results

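Chaperone and heat shock genes were followed in U-2OS cells, which derive from a human bone tumour (osteosarcoma), with and without knockdown of CGGBP1. The genes were chosen by symbol: the HSPA, HSPB, HSPD, HSPE and HSPH families, the HSP90 genes, the numbered DNAJA, DNAJB and DNAJC genes, the numbered CCT genes, and the transcription factors HSF1 and HSF2. This gave 85 of the 18388 genes measured. They were split into HSP90 (3 genes), HSP70 (11), HSP110 (3), J proteins (41, of which 4 were DNAJA, 10 DNAJB and 27 DNAJC), the cytosolic chaperonin CCT (8), the mitochondrial chaperonin (2), small heat shock proteins (8), HSF (2) and 7 other matches, which are read-through, antisense or binding-partner genes. The rule missed TCP1, the first subunit of the cytosolic chaperonin, which is given among related genes.

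Chaperones bind proteins that are unfolded or partly folded. HSP70 proteins hold and release short hydrophobic stretches in cycles of ATP hydrolysis, J proteins bring them their clients and speed that hydrolysis, HSP110 proteins exchange the nucleotide, HSP90 takes over clients near the folded state, and the chaperonins enclose a chain in a chamber. HSF1 is the transcription factor that raises many of these genes after heat or other protein damage by binding heat shock elements, while genes of the endoplasmic reticulum (ER) members carry ER stress elements read by ATF6.

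All cells were U-2OS Tet-ON cells, which express the tetracycline-regulated transactivator, and all library names carried the word DMSO. A pool of siRNAs against CGGBP1 (siCGGBP1) or a control siRNA (siControl) was given at 50 nM for 72 h, and 4-thiouridine (4sU) was in the medium for the last 60 min. SLAM-Seq reads the 4sU built into new RNA as T-to-C conversions, so each 3′ end library gave total RNA (read counts) and an estimate of the share that was newly synthesized. There were 3 siControl and 3 siCGGBP1 libraries with 75 µM 4sU, and 1 siControl library each with 0 and 200 µM 4sU, which entered no test. The labels do not say whether the replicates came from separate cultures, while the study's methods count its replicates as biological ones, and p-values measure the spread between these libraries.

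Each library held between 10127519 and 19011714 reads. CGGBP1 itself fell from 106, 94.1 and 73.9 RPM (reads per 1000000 reads of the library) in the siControl libraries to 18.2, 10.0 and 31.0 in the siCGGBP1 libraries (log2 fold change -2.22, standard error 0.39, adjusted p = 0.0137 by edgeR's quasi-likelihood test), a call lost with siControl 1 (adjusted p = 0.0632) or siCGGBP1 1 (0.0851) left out. The mesenchymal markers VIM (1811 to 3252 RPM) and COL1A1 (604 to 2021) were present in all libraries. CDH1, CD3E and PECAM1, markers of epithelium, T cells and endothelium, had no read in any. Other listed markers of epithelium, blood and endothelium did have reads, up to 13.0 RPM for EPCAM, 1.59 for LYZ and 2.27 for VWF. The summed level of the 4 mesenchymal and bone markers listed lay between 3487 and 4215 RPM in siControl and between 5249 and 7182 in siCGGBP1. Its part in the results was not tested.

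Sequences are shown first because the classes are usually described by the elements in their promoters. Windows of 250 bases before to 50 after a gene's start, from RefSeq (GRCh38.p14), were found for 74 of the 85 genes, 98 windows in all. Each pattern was searched on both strands. The heat shock element was TTC, GAA and TTC with 2 free bases between neighbours, the ER stress element was CCAAT and CCACG with 9 free bases between them, and the tract of 3 CGG repeats, the kind of repeat that CGGBP1 is named for, was CGGCGGCGG or, on the other strand, CCGCCGCCG. A match describes letters in this window and shows no binding, and a window without a match says nothing about the factor.

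The heat shock element was in 7.14% of the chaperone windows and in 0.49% of the 35116 windows of all genes. It matched in DNAJA1, DNAJB6, HSP90AA1, HSP90AB1, HSPA6, HSPA8 and HSPD1. The capitals below mark the element in both cytosolic HSP90 genes, the constitutive HSP70 gene HSPA8 and HSPD1, the neighbour of HSPE1, each written 5′ to 3′ along the strand of its gene.
HSP90AA1, chr14:102087113-102087139, minus strand: agggttcTTCCGGAAGGTTCgggaggc
HSP90AB1, chr6:44247824-44247850, plus strand: gagattgTTCTGGAAGCTTCtggattc
HSPA8, chr11:123062172-123062198, minus strand: gggccccTTCTGGAAGGTTCtaagata
HSPD1, chr2:197500061-197500087, minus strand: ttttctgGAAAGTTCTGGAAccgagcg
The HSPD1 stretch holds 2 matches that overlap, 1 on each strand. HSPD1 and HSPE1 lie head to head on chromosome 2, and the stretch ends just before the annotated first base of HSPE1 at 197500140.

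The ER stress element was in 2.04% of the chaperone windows and in 0.0769% of all windows. Its only chaperone genes were HSPA5 (BiP) and HSP90B1 (GRP94), the HSP70 and HSP90 of the ER lumen. Here the capitals mark that element.
HSPA5, chr9:125241387-125241413, minus strand: ttcaCCAATCGGCGGCCTCCACGacgg
HSP90B1, chr12:103930212-103930238, plus strand: ctgaCCAATCGGAAGGAGCCACGcttc

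The CGG tract was in 8.16% of the chaperone windows, beside 6.21% of all windows. It matched in DNAJA2, DNAJB1, DNAJB6, DNAJB14, HSF2, HSP90AA1, HSPA5 and HSPA6. Here the capitals mark the tract in the pair of matching genes with the most reads, HSP90AA1 and HSPA5, and in a J protein gene.
HSP90AA1, chr14:102087137-102087163, minus strand: gcgcggccgCGGCGGCGGctggggagg
HSPA5, chr9:125241452-125241478, minus strand: gcttcgaatCGGCGGCGGccagcttgg
DNAJB1, chr19:14518387-14518413, minus strand: gggactggtCGGCGGCGGagccggggg

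Chaperone genes took a smaller share of the reads after CGGBP1 knockdown. They made up 1.95, 1.68 and 1.71% of the reads in the siControl libraries and 1.37, 1.27 and 1.29% in the siCGGBP1 libraries. The groups did not overlap, and the siControl libraries with 0 and 200 µM 4sU, at 1.62 and 1.63%, lay above all 3 siCGGBP1 libraries. As bulk libraries, these values cannot tell fewer cells that use a gene from less RNA per cell. Levels of different genes are compared in RPM without division by length, because a 3′ end library reads 1 place per transcript.

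HSP90 and the cytosolic chaperonin held most of these reads. In siControl, HSP90 made up 33.9 ± 3.96% (SD, n = 3) of the reads of chaperone genes, CCT 21.9 ± 1.61%, the J proteins 15.3 ± 0.718%, HSP70 9.07 ± 0.243% and the small heat shock proteins 8.10 ± 0.446%. HSP90AB1, HSP90AA1 and HSPB1 were the 3 genes with the most reads.

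By class, the summed level was lower in siCGGBP1 without overlap for HSP90, HSP70, HSP110, CCT, the mitochondrial chaperonin, the small heat shock proteins and the DNAJB genes. Among the 9 tested DNAJB genes 4 had a log2 fold change above 0 and the median was -0.08, and the 2 lower without overlap were DNAJB11 (147 to 93.1 RPM on average) and DNAJB6 (74.7 to 52.4). The class sum overlapped for the DNAJA and DNAJC genes and for HSF. HSP90 summed to 7503, 5446 and 5285 RPM in siControl and to 4501, 3898 and 3610 in siCGGBP1, but to 4263 and 4632 in the siControl libraries with 0 and 200 µM 4sU. The library without 4sU therefore lay inside the siCGGBP1 range for this class. CCT summed to 3911, 3845 and 3887 in siControl and to 3013, 2781 and 3145 in siCGGBP1, with 4005 and 3589 in the other siControl libraries. For CCT, HSP70, HSP110, the DNAJB genes and the mitochondrial chaperonin (990, 871 and 1101 against 577, 498 and 682, with 881 and 907) all 5 siControl libraries lay above all siCGGBP1 libraries. Without HSP90, the chaperone genes still summed to 12018, 11349 and 11792 in siControl and to 9174, 8852 and 9298 in siCGGBP1, with 11892 and 11704 in the other siControl libraries.

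The J proteins together summed to 2850, 2580 and 2738 RPM in siControl and to 2476, 2327 and 2583 in siCGGBP1, and these ranges overlapped. As a share of the chaperone reads they went from 15.3 ± 0.718% in siControl to 18.8 ± 1.06% in siCGGBP1 (SD, n = 3), without overlap. That share also depends on the other classes.

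**Figure D1:**
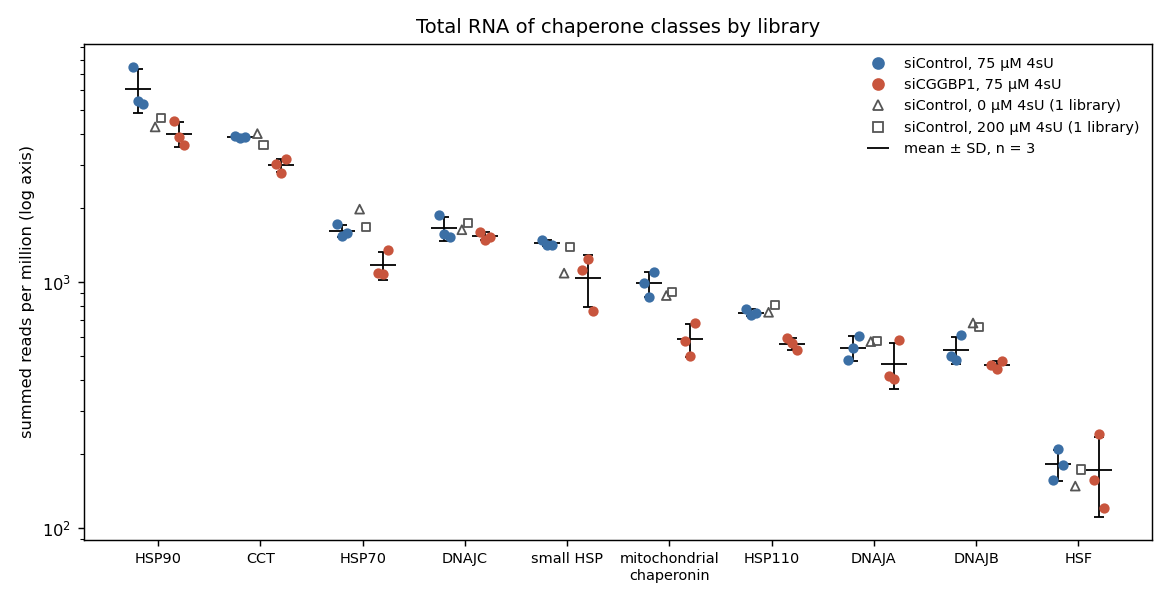
Summed RPM of 10 chaperone classes in each library (log axis), with the mean and SD of the 3 siControl and 3 siCGGBP1 libraries and the single siControl libraries with 0 and 200 µM 4sU as open symbols. The siCGGBP1 libraries lie below all siControl libraries for CCT, from 2781 to 3145 against 3589 to 4005, while the HSP90 sum without 4sU, 4263, falls among the siCGGBP1 values.

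Gene by gene, 63 of the 85 reached a minimum of 100 reads in 3 or more of the 6 libraries and were tested, 54 of them with 100 reads in all 6. The other 22 averaged at most 9.70 RPM and include the heat-induced HSP70 gene HSPA6, the small heat shock protein HSPB8 and the auxilin gene DNAJC6. Calls were made at an adjusted p under 0.05. HSPE1 was the sole gene to pass and was lower in siCGGBP1. Over all 10138 tested genes 1.21% were called lower and 0.543% higher. No chaperone gene was called higher, and at an unadjusted p under 0.05 there was 1, DNAJC16, beside 7.95% of all tested genes. DESeq2 called none higher either, beside 2.55% of all.

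Short of the call, the values leaned one way. The log2 fold change was below 0 for 46 of the 63 genes, beside 50.2% of all tested genes, and the median was -0.28, beside -0.00 over all. At an unadjusted p under 0.05, 17 were lower, beside 8.43% of all tested genes. The siCGGBP1 libraries lay below all siControl libraries for 16 genes, beside 11.7%, and above them for 4, beside 12.6%. Of the 16 genes below without overlap, 10 also had both of the other siControl libraries above all siCGGBP1 libraries. The exceptions were CCT8, DNAJC8, HSP90AA1, HSP90AB1, HSPA4 and HSPB1.

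**Figure D2:**
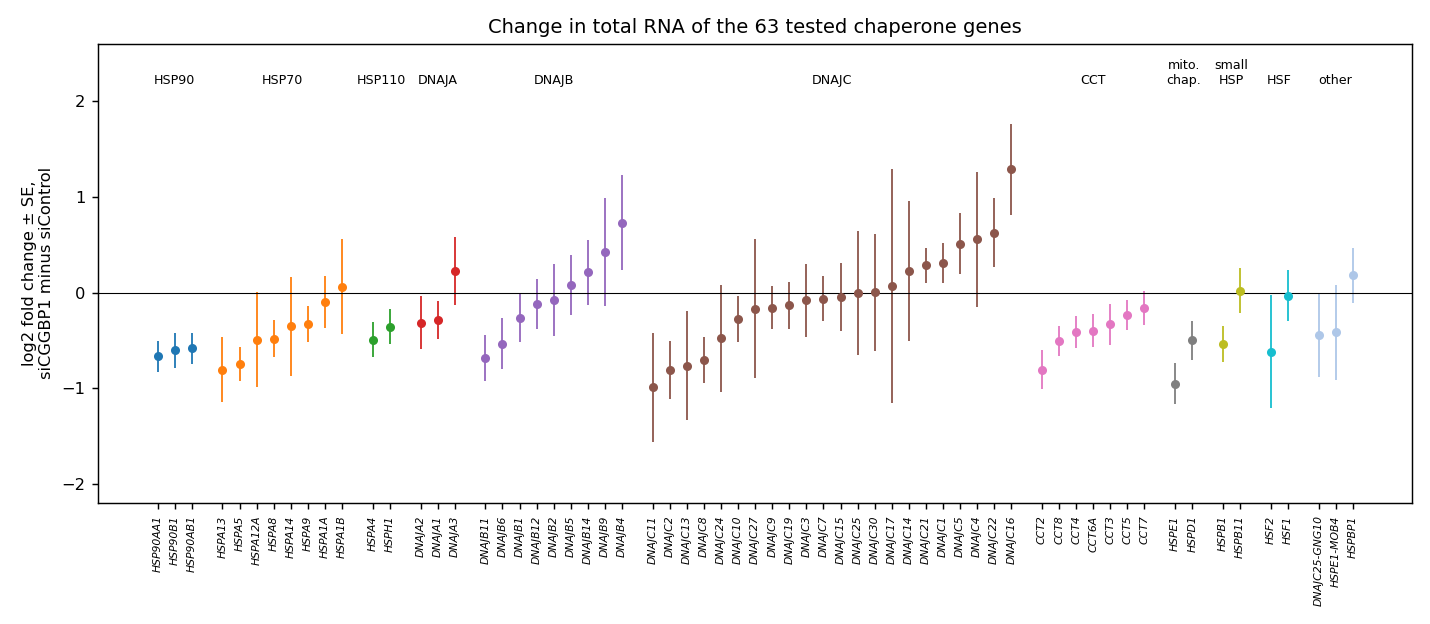
Log2 fold change in total RNA (siCGGBP1 minus siControl) with its standard error for the 63 tested chaperone genes, grouped by class. All 3 HSP90 genes and all 9 tested chaperonin genes lie below 0, while the J proteins spread from -0.99 to 1.29.

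The mitochondrial chaperonin had the lowest median, -0.73. HSPE1 (ENSG00000115541, chromosome 2, 197500140 to 197503449, plus strand) encodes HSP10, the lid of the chamber, and HSPD1, its neighbour, encodes HSP60, the barrel. HSPE1 was read at 569.9, 586 and 757 RPM in siControl and at 286, 281 and 436 in siCGGBP1. The groups did not overlap, and the 0 and 200 µM siControl libraries, at 563 and 579, lay with the other siControl libraries. HSPE1 fell by 0.96 on the log2 scale (standard error 0.22, adjusted p = 0.0455 by edgeR), to 0.516 of its siControl level (3 against 3). The call was lost without any 1 of siControl 1, 2 or 3 or siCGGBP1 1 or 2, with adjusted p between 0.0800 and 0.180. HSPD1 was read at 420.0, 286 and 344 RPM in siControl and at 291, 217 and 245 in siCGGBP1, so the groups overlapped, and its log2 fold change was -0.50 (standard error 0.21). HSPE1-MOB4, a read-through of HSPE1 and its neighbour that can share its reads, had a log2 fold change of -0.42 (standard error 0.50).

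All 3 HSP90 genes had a lower mean, with no overlap between the groups and no call. HSP90AA1, the stress-responsive cytosolic form, was read at 3435, 2456 and 2418 RPM in siControl and at 1969.6, 1687 and 1656 in siCGGBP1. The siControl libraries with 0 and 200 µM 4sU stood at 1752 and 1539, within or below the siCGGBP1 range. HSP90AB1, the constitutive form, was read at 3486, 2519 and 2427 against 2158, 1908 and 1633 RPM, and at 1930.1 and 2584 in the other siControl libraries. Here the library without 4sU lay with siCGGBP1 and the one with 200 µM lay with siControl.

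HSP90B1 differed from the cytosolic pair in the single libraries. It was read at 582, 471 and 440.5 RPM in siControl, 373, 302 and 321 in siCGGBP1, and 582 and 509 in the 0 and 200 µM siControl libraries, so all 5 siControl libraries lay above all siCGGBP1 libraries. The log2 fold changes were -0.67 for HSP90AA1 (standard error 0.16, adjusted p = 0.0581 by edgeR), -0.59 for HSP90AB1 (0.17, adjusted p = 0.0991 by edgeR) and -0.60 for HSP90B1 (0.18, adjusted p = 0.113 by edgeR). Reads from processed HSP90 copies elsewhere in the genome could be split with these genes, since reads that match several genes were counted in fractions.

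Among the HSP70 genes, 7 of the 8 tested had a log2 fold change below 0. HSPA5, the ER member, was read at 443, 463 and 398 RPM in siControl and at 242, 243 and 304 in siCGGBP1. The groups did not overlap, and the siControl libraries with 0 and 200 µM 4sU, at 470.4 and 482, lay above all of them. The log2 fold change of HSPA5, -0.74 with a standard error of 0.18, was not called (adjusted p = 0.0569 by edgeR), and leaving out siCGGBP1 3 brought the adjusted p to 0.0465. HSPA8, the constitutive cytosolic HSC70, was read at 751, 525 and 702 against 452, 418 and 567 RPM, which overlapped (log2 fold change -0.48, standard error 0.19). HSPA9, the mitochondrial member, had -0.33 (0.19), and HSPA13 had -0.81 (0.34) at a low level, from 20.9 to 50.9 RPM over the 6 libraries.

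The heat-inducible pair had values near 0. HSPA1A was read at 96.8, 123 and 139 RPM in siControl and at 85.4, 96.8 and 158 in siCGGBP1, and highest, at 308, in the siControl library without 4sU. HSPA1B, whose coding sequence is nearly identical, so that reads could be split between the genes, had a log2 fold change of 0.06 (standard error 0.50) beside -0.10 (0.27) for HSPA1A. HSPA6 had between 0 and 14 reads in the 6 libraries and was not tested. Of the HSP110 genes, HSPA4 and HSPH1 were both lower without overlap (log2 fold changes -0.49 and -0.36, standard errors 0.18 and 0.19), and HSPA4L had at most 1 read in any library.

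The cytosolic chaperonin folds actin and tubulin in a ring of 8 subunits. All 7 of its tested genes had a log2 fold change below 0, with a median of -0.40, and CCT2, CCT4, CCT6A and CCT8 were lower without overlap. CCT2 was read at 477, 341 and 415 RPM in siControl and at 276, 194 and 246 in siCGGBP1, and at 445 and 340.1 in the 0 and 200 µM siControl libraries, above all siCGGBP1 libraries. On the log2 scale this was -0.81 (standard error 0.21), short of a call (adjusted p = 0.0748 by edgeR). CCT8 was read at 892, 898 and 962 against 664, 568 and 733 RPM, with 839.5 and 664 in the other siControl libraries, so the 200 µM library lay within the siCGGBP1 range (log2 fold change -0.51, standard error 0.16, adjusted p = 0.133 by edgeR). The subunits were not equal in level in siControl, from 233 ± 16.1 (CCT3) to 917 ± 39.2 RPM (CCT8; SD, n = 3). The log2 fold change was nearest to 0 for CCT7, at -0.17 (standard error 0.18). CCT6B, a testis-type subunit, averaged 0.0833 RPM in siControl.

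The labels number the libraries and state no pairing, but libraries of the same number were taken as pairs in an alternative fit. With the replicate number as a block 5 genes were called lower: HSPE1 (adjusted p = 0.0146), CCT2 (0.0270), HSP90AA1 (0.0281), HSP90AB1 (0.0423) and HSPA5 (0.0496), all by edgeR. Over all tested genes that fit called 1.59% lower. DESeq2, the test that the study's methods name, called 7, these 5 with HSP90B1 and CCT8, and 3.45% of all tested genes.

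**Figure D3:**
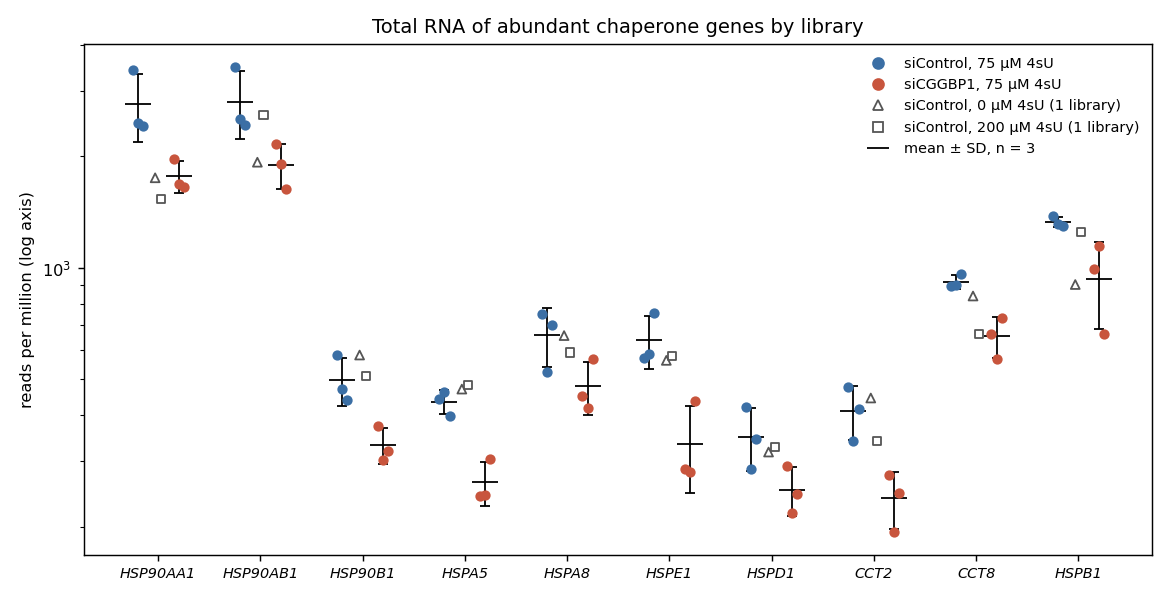
RPM (log axis) of 10 abundant chaperone genes in each library, with the mean and SD of the 3 siControl and 3 siCGGBP1 libraries and the single 0 and 200 µM siControl libraries as open symbols. For HSPE1, HSPA5 and CCT2 the open symbols lie with siControl, at 563 and 579 for HSPE1, while for HSP90AA1 they lie at 1752 and 1539, with siCGGBP1.

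Of the small heat shock proteins only HSPB1 (HSP27), which holds unfolding proteins without ATP, was abundant. It was read at 1378, 1312 and 1300.4 RPM in siControl and at 991, 1142 and 661 in siCGGBP1. The groups did not overlap, the library without 4sU fell within the siCGGBP1 range at 902, and the log2 fold change was -0.54 with a standard error of 0.19 (adjusted p = 0.176 by edgeR). HSPB11, an intraflagellar transport subunit in spite of its name, had a log2 fold change of 0.02 (standard error 0.24). The regulators also showed no difference beyond their spread. HSF1 was read at 138, 199 and 142 RPM in siControl and at 136, 225 and 113 in siCGGBP1, and HSF2 averaged 22.3 ± 14.3 and 14.9 ± 6.54 (SD, n = 3).

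The J proteins split in both directions, with 20 of 34 tested genes below 0 and 14 above, and a median of -0.07. Of the 28 chaperone genes of any class with at least 100 RPM in siControl, 27 were below 0. The exception was the J protein gene DNAJC21. DNAJA1, DNAJB11, DNAJC2, DNAJC7, DNAJC8, DNAJC9 and DNAJC10 also reached that level. The share below 0 among all genes at that level was not computed, and the part of level in the split was not tested. DNAJB11, the ER partner of HSPA5, and DNAJB6, a suppressor of polyglutamine aggregation, were lower without overlap, with log2 fold changes of -0.69 (standard error 0.24) and -0.54 (0.27). DNAJC8, a spliceosome-associated J protein, was read at 349, 219 and 201 RPM against 175, 172 and 130 and had -0.71 (0.24, adjusted p = 0.160 by edgeR). DNAJB1 and DNAJA1, the main cytosolic partners of HSP70, had -0.26 (0.25) and -0.29 (0.20), and both overlapped between the groups.

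The J protein genes higher without overlap were DNAJB4, DNAJC1, DNAJC16 and DNAJC21. DNAJB4 was read at 8.07, 13.9 and 18.1 RPM in siControl and at 23.4, 19.3 and 25.0 in siCGGBP1. The siControl libraries with 0 and 200 µM 4sU, at 38.2 and 28.5, lay above all of these. DNAJC16 was read at 12.7, 15.05 and 12.2 RPM in siControl and at 20.7, 22.2 and 55.9 in siCGGBP1, so siCGGBP1 3 stood apart from its group. On the log2 scale it differed by 1.29 (standard error 0.48, adjusted p = 0.197 by edgeR), or by 0.68 without siCGGBP1 3. DNAJC21, which takes part in maturation of the large ribosomal subunit, was read at 289.9, 253 and 242 against 298, 304 and 367 RPM (log2 fold change 0.29, standard error 0.18), with 238 and 284 in the other siControl libraries. DNAJC1, an ER membrane J protein, went from 97.4 ± 3.91 to 123 ± 6.14 RPM (SD, n = 3), with 114 and 106 in the other siControl libraries (log2 fold change 0.31, standard error 0.21).

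DNAJC13 (ENSG00000138246, chromosome 3 of GRCh38, 132417502 to 132539032, plus strand), also called RME-8, is a J protein of early endosomes that works with the WASH and retromer complexes. It had 509, 374 and 99 reads in siControl and 242, 194 and 179 in siCGGBP1, with 385 and 446 in the 0 and 200 µM siControl libraries. Its total RNA overlapped between the groups, because siControl 3 held the fewest reads of all 8 libraries. On the log2 scale the difference was -0.76 (standard error 0.57, adjusted p = 0.557 by edgeR), a value in the range of the 22 tested DNAJC genes, -0.99 (DNAJC11) to 1.29 (DNAJC16). It was -0.15 without siControl 1 and -1.20 without siControl 3. At 23.7 RPM over the 6 libraries it stood below DNAJC21 (293), DNAJC8 (208) and DNAJC9 (164).

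Newly synthesized RNA was measured with far less precision. In the chaperone genes, conversions per 100 covered T were 0.169, 0.153 and 0.114 in siControl and 0.196, 0.170 and 0.195 in siCGGBP1, against 0.0483 in the library without 4sU. The siCGGBP1 libraries lay above the siControl libraries by a narrow margin, and siControl 3 was the lowest. The estimated ratio of new to total RNA was 0 for 14.3, 9.52 and 52.4% of the 63 tested genes in siControl 1 to 3, and for 19.0, 17.5 and 54.0% in the siCGGBP1 libraries, so replicate 3 of both groups gave no estimate above 0 for most of the genes. The fitted biological coefficient of variation was 1.78 for newly synthesized RNA and 0.399 for total RNA. In simulated data, none of 200 changed genes was recovered in newly synthesized RNA, and 72.5% in total RNA. These shares hold only for the size of change put into those genes. That size was larger than the log2 fold change of any tested chaperone gene in total RNA. Recovery at the log2 fold changes of the tested chaperone genes in total RNA, -0.99 to 1.29, was not tested.

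The classes differed in how many conversions they carried. In siControl the DNAJB genes had 0.351 ± 0.0644 conversions per 100 covered T, the DNAJC genes 0.223 ± 0.0428, HSP70 0.194 ± 0.0247, HSP90 0.134 ± 0.0356, CCT 0.107 ± 0.0332 and the small heat shock proteins 0.0574 ± 0.0398 (SD, n = 3). The DNAJB genes thus lay above every other class, and its 3 siControl libraries did not overlap with those of any of them. Over all reads of a class, newly synthesized RNA made up 5.88 ± 0.825% of the J protein reads, 2.22 ± 0.585% of the HSP90 reads, 1.45 ± 0.533% of the chaperonin reads and 0.413 ± 0.360% of the small heat shock protein reads in siControl (SD, n = 3). In siCGGBP1 these were 6.46 ± 0.933%, 3.25 ± 1.74%, 2.16 ± 0.526% and 0.309 ± 0.270%, each overlapping its siControl range. Conversions per 100 covered T were higher in siCGGBP1 without overlap for the J proteins and the chaperonins. They went from 0.244 ± 0.0256 to 0.289 ± 0.0146 and from 0.106 ± 0.0271 to 0.150 ± 0.0118 (SD, n = 3). For HSP90 and the small heat shock proteins they overlapped.

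**Figure D4:**
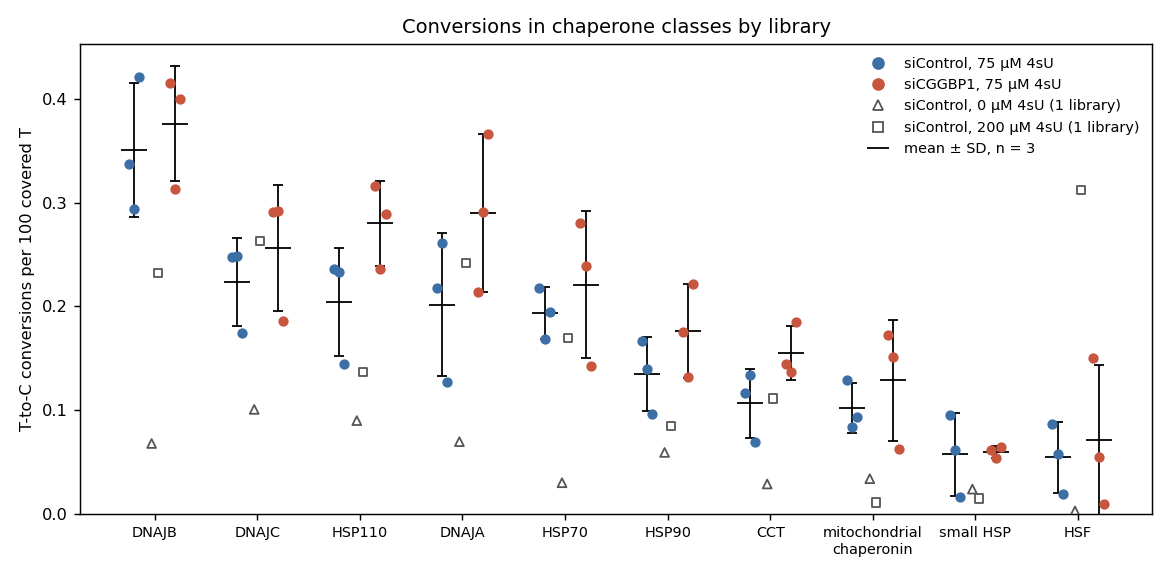
T-to-C conversions per 100 covered T in 10 chaperone classes, by library, with the mean and SD of 3 siControl and 3 siCGGBP1 libraries (bars that pass 0 are clipped there) and the 0 and 200 µM siControl libraries as open symbols. DNAJB lies highest, at 0.351 in siControl against 0.0678 without 4sU, and the small heat shock proteins lie at 0.0574 in siControl against 0.0238 without 4sU.

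Without 4sU the conversions were not zero, from 0.00270 (HSF) to 0.101 (DNAJC) per 100 covered T by class. The library with 200 µM 4sU did not show more than those with 75 µM, at 0.128 over all chaperone genes. By class it was highest for HSF, with 0.312, carried by HSF2 (152 conversions), while HSF1 had 5. At 75 µM the conversions of HSF1 numbered 26, 31 and 7 in the siControl libraries and 1, 4 and 3 with siCGGBP1.

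Single genes ranged widely. HSP90AA1, the gene with the deepest coverage next to HSP90AB1, had a new-to-total ratio of 1.60, 1.90 and 1.73% in siControl and 1.47, 1.63 and 3.76% in siCGGBP1. HSPB1 had 0.43, 0.71 and 0% against 0.49, 0.53 and 0%. At the other end, the ratio averaged over the 6 libraries was 35.4% for DNAJC27, a gene with both a J domain and a Rab-type GTPase domain, 23.4% for DNAJB4 and 20.9% for DNAJB14. Each had libraries at or near 0 beside high ones: DNAJC27 had 60.9, 32.4 and 0% in siControl and 34.8, 79.8 and 4.28% in siCGGBP1, on 11.6 RPM.

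No chaperone gene was called in newly synthesized RNA by edgeR, where 5 genes in all (0.0516% of 9691) were. At an unadjusted p under 0.05 there were 3, all lower, beside 2.00% of all genes fitted: DNAJC13, CCT3 and DNAJB11. DESeq2 called 1, DNAJC13, a gene chosen with earlier results of these libraries known. CCT3 had a ratio of 2.09, 1.67 and 0% in siControl and 0% in all 3 siCGGBP1 libraries. With a floor of 3 new reads assumed in each siCGGBP1 library, it was 10.0 times lower, or 6.08 times when siControl 1 was left out. This floor is no bound, because the upper credible limits in siCGGBP1, 0.4, 0.2 and 0.33%, allow more than 3 new reads. The conversions of CCT3, 87, 100 and 10 against 21, 46 and 15, overlapped between the groups. DNAJC22 had a ratio of 0% in all siControl libraries and 12.5, 5.11 and 0% in siCGGBP1. With the same floor assumed in siControl, its new RNA level was 6.05 times higher, or 3.13 times with siCGGBP1 1 left out. The upper credible limits in siControl, 1.83, 2.17 and 1.41%, again allow more new reads than the floor.

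Read as conversions per covered T, which do not pass through the ratio estimate, 4 genes were higher in siCGGBP1 without overlap (CCT6A, DNAJA2, DNAJB5 and HSPA4) and 5 lower (DNAJC9, DNAJC10, DNAJC13, DNAJC15 and HSF1). Over all tested genes the shares were 4.14 and 4.46%. Per 100 covered T, HSPA4 carried 0.259, 0.267 and 0.246 conversions with siControl, all below its 0.390, 0.360 and 0.547 with siCGGBP1. Its value in the library without 4sU was 0.161. DNAJB5 had 0.154 without 4sU, within its siControl range (0.141, 0.0787 and 0.189). CCT6A and DNAJA2 had 0.0142 and 0 there. DNAJC10, an ER disulfide reductase, had 0.230, 0.187 and 0.181 against 0.0752, 0.136 and 0.0126. HSPE1, whose total RNA fell, had 0.151, 0.0678 and 0.127 against 0.0435, 0.050 and 0.0871, which overlapped.

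DNAJC13 was chosen for a closer description with earlier results of these libraries known, so its values in newly synthesized RNA are a description, and nothing is supported with the counts above that include it. Its new-to-total ratio was 5.75, 12.2 and 99.99% in siControl and 0% in all 3 siCGGBP1 libraries. It carried 51, 82 and 49 conversions in the siControl libraries against 6, 9 and 0 with siCGGBP1, and its reads with at least 2 conversions were 15, 23 and 1 against 0 in each siCGGBP1 library. The siControl and siCGGBP1 libraries thus did not overlap in any of the 3 measures. With a floor of 3 new reads assumed in each siCGGBP1 library, its newly synthesized RNA was 17.1-fold lower, and 11.1-fold lower without siControl 3. The upper credible limits of the ratio in siCGGBP1, 3.51, 4.04 and 3.73%, allow more than 3 new reads in each library. Such floors cover counting error only and are no lower bounds on the change.

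The siControl libraries differed widely among themselves on this gene. In siControl 3 the estimate took all 99 reads as new, above its own upper credible limit of 99.0%, although only 1 read held at least 2 conversions. The siControl library with 200 µM 4sU, with 446 reads and 17290 covered T, had 1 conversion and a ratio of 0% (credible limits 0.02 to 1.33%), the same number of conversions as the library without 4sU. At 0.00578 conversions per 100 covered T it lay with the siCGGBP1 libraries (0.0699, 0.137 and 0) and not with the 75 µM siControl libraries (0.280, 0.640 and 1.55).

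Among the J proteins the siControl mean of DNAJC13, 0.824 conversions per 100 covered T, was below those of DNAJC27 (1.22), DNAJB14 (1.12) and DNAJB4 (0.844) and above the other 30. In siCGGBP1 it was 0.0690. DNAJC9, DNAJC10 and DNAJC15 were lower in siCGGBP1 in all 9 pairs of libraries as well. DNAJC15, a mitochondrial J protein, had 0.147, 0.209 and 0.517 against 0.116, 0.0394 and 0.0317, with siControl 3 again the highest. At 200 µM 4sU, DNAJC9 (0.207) lay within its siControl range, while DNAJC10 (0.0664) and DNAJC15 (0.0797) lay within their siCGGBP1 ranges.

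**Figure D5:**
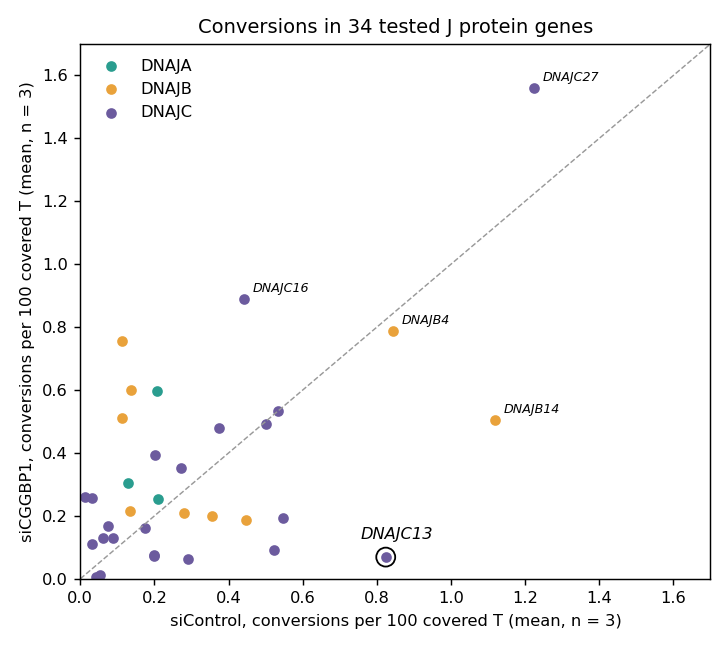
Mean T-to-C conversions per 100 covered T (n = 3) in siControl (horizontal axis) and siCGGBP1 (vertical axis) for 34 tested J protein genes, with the line of equal values dashed. DNAJC13 (circled) lies at 0.824 and 0.0690, below the line, and DNAJC27 lies highest on both axes, at 1.22 and 1.56.

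Related genes were followed in 6 lists of partners and known targets, which hold many of the chaperone genes above. Of 23 tested HSF1 targets, 19 had a log2 fold change below 0 (median -0.36), and of the 11 outside the chaperone families 9 had (median -0.20). By edgeR 1 target was called lower, HSPE1, and none higher. DESeq2 called 4 lower, HSPE1, HSP90AA1, HSP90AB1 and BAG3, and the fit with the replicate block 3, the same without BAG3. BAG3, a nucleotide exchange factor outside those families, had -1.15 (standard error 0.32, adjusted p = 0.0922 by edgeR and 0.0239 by DESeq2). Of 24 ER chaperone and unfolded protein response genes 16 were below 0 (median -0.24), 10 of them among the 16 outside the families (median -0.16), and CANX, the membrane-bound lectin chaperone calnexin, was called lower (-1.27, standard error 0.17, adjusted p = 0.00353 by edgeR). PDIA3, the disulfide isomerase that binds calnexin, had -1.23 (0.32) and was called by DESeq2 (adjusted p = 0.0130) and not by edgeR (0.0827). P4HB, another disulfide isomerase, had 0.52 (0.18) and was called by neither.

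In the list of TRiC and prefoldin genes 12 of 16 were below 0 (median -0.37), as were 5 of the 9 outside the families (median -0.19). PFDN1, a subunit of prefoldin, which hands clients to the chaperonin, fell by 1.72 on the log2 scale (standard error 0.31, adjusted p = 0.0161 by edgeR), a call lost with siControl 1, siControl 3 or siCGGBP1 1 left out (adjusted p between 0.0544 and 0.0772). TCP1 had -0.45 (0.20). Of 18 mitochondrial chaperones and proteases 12 were below 0 (median -0.12), with 6 of the 10 outside the families (median -0.08), and HSPE1 was the 1 called by edgeR. Of 23 co-chaperones of HSP90 and HSP70 17 were below 0 (median -0.20), all of them among the 22 outside the families (median -0.22). None was called by edgeR, while DESeq2 called 2 lower, BAG3 and ST13, the latter at -0.81 (0.24, adjusted p = 0.0181 by DESeq2 and 0.105 by edgeR). Of 13 genes for clathrin uncoating and endosomal J proteins with their WASH and retromer partners 5 were below 0 (median 0.02), with 3 of the 11 outside the families (median 0.08), and none was called by edgeR or DESeq2. WASHC5, WASHC2C and WASHC3, partners of DNAJC13 on endosomes, had -0.61 (0.34), 0.53 (0.36) and 0.91 (0.46).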

How the data were processed

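SLAM-Seq of U-2OS Tet-ON cells was analysed, with 3 siControl and 3 siCGGBP1 libraries at 75 µM 4sU and single siControl libraries at 0 and 200 µM. The authors removed ribosomal reads with Bowtie2 2.3.0, mapped with STAR 2.5.3a to GRCh38 and deposited, from GRAND-SLAM, expected counts of reads, conversions and covered T per gene, not normalized and fractional where a read matched several genes (66 of the 85 genes). They also deposited new-to-total ratios as a fraction with credible limits. Reads carry no molecular identifiers, and the genes listed hold no spike-in. Values named min2 were read as reads with at least 2 conversions. Libraries held 10127519 to 19011714 reads.

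Rounded counts entered edgeR 4.0.16 in R 4.3.3 (TMM, quasi-likelihood F test) for the 10138 genes that reached 100 reads in 3 or more of the 6 libraries, with Benjamini-Hochberg adjustment and a call at adjusted p under 0.05. Standard errors were derived from the fold change and the square root of F. Newly synthesized RNA was reads multiplied by the maximum a posteriori ratio, rounded, with total-read library sizes. Genes were placed with GENCODE 44 (18198 of 18388 identifiers matched). Same-numbered libraries deviated together only weakly (correlations of deviations from the group means 0.122, 0.216 and 0.105, all over 0.1), and the labels state no pairing. The numbers were taken as pairs in the blocked fit, which is given where it changes a call.

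Genes named were CGGBP1, DNAJC13, HSF1, HSF2, the 3 highest of each class, those with the lowest p in each direction, the highest ratios and the 3 lowest p outside the families in each list, and others where a count or sequence singled them out. Members, classes and lists were chosen with earlier results of these data known. Alternatives were DESeq2 1.42.0, other filters, size factors and thresholds, the replicate block and leaving out each replicate. Fits were tested on simulated data.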

Additional observations from a re-analysis of the deposited data

Results flagged for a closer look

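The siControl library with 200 µM 4sU entered no test. It held 0.128 conversions per 100 covered T over the chaperone genes, above the 0.0483 of the library without 4sU, and within the range of the siControl libraries with 75 µM.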

How the results depend on the processing

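The number of chaperone genes called lower in total RNA, 1 in the edgeR fit, was 7 with DESeq2, 5 with the replicate block, 5 at an adjusted p under 0.1, 4 without a filter, 1 with DESeq2 size factors, 0 with a filter of 10 reads, 0 when an absolute log2 fold change above 1 was also asked, and 0 to 2 when 1 replicate was left out (HSPE1 and HSPA5 without siCGGBP1 3, and 0 without any other). In newly synthesized RNA DESeq2 called 1, DNAJC13, and edgeR none. DNAJC13 was chosen with earlier results of these libraries known, so its call is a description and supports nothing. The replicate block changed no call other than those given. Genes near 0 that were never called changed sign in total RNA. DNAJB2 had a log2 fold change of 0.026 with the replicate block, and HSPB11 had -0.000104 without a filter. With 1 replicate left out, DNAJB12 ranged from -0.30 to 0.026, DNAJB14 from -0.10 to 0.43, DNAJB2 from -0.40 to 0.26, DNAJC27 from -1.05 to 0.27, HSF1 from -0.38 to 0.17, HSF2 from -0.98 to 0.037 and HSPB11 from -0.081 to 0.18. The cause of these shifts was not tested. Among tested genes, 57.2% in siControl 3 and 59.2% in siCGGBP1 3 had a new-to-total ratio of 0, on 12008067 and 14221516 reads, beside 23.2% in siControl 1 on 10166234 reads. Class sums were also computed without replicate 3 of both groups and with the 0 and 200 µM libraries added to siControl, alternatives chosen after seeing the data.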
